A study of Mus musculus with 6 samples.

Results

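The genes described here encode the cytosolic protein-folding machinery of the cell: 55 genes of the HSP70, HSP110 and HSP90 chaperones, small heat shock proteins, J-proteins, HSP70 and HSP90 cochaperones, the chaperonin TRiC and its partner prefoldin, with the heat shock factors Hsf1 and Hsf2. They were chosen by name from a list of gene symbols, with earlier results of these data known. All 55 were found among the 21851 named genes in the expression tables. Hematopoietic stem cells (HSCs), which sustain blood formation for life, were sorted from bone marrow and sequenced as bulk RNA: 3 libraries came from control and 3 from irradiated mice (ionizing radiation), every one labelled wild type. The sort gate required Sca-1, c-Kit and CD150 and excluded cells with lineage markers, Flt3 or CD48. The sources used here do not give dose, interval after exposure, age of the mice or how many mice went into a library. Levels are in FPKM, fragment numbers scaled to transcript length and library depth, so that genes of different length can be compared.

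In the cytosol HSP70 binds short hydrophobic stretches of unfolded proteins, J-proteins deliver clients and trigger its ATP hydrolysis, and nucleotide exchange factors such as HSP110 and the BAG proteins release them. HSP90 acts later, on kinases, steroid receptors and other near-native clients, with cochaperones that pace its cycle. TRiC encloses actin, tubulin and other proteins in a ring chamber, and prefoldin hands clients to it. In the heat shock response the transcription factor HSF1 binds heat shock elements and strongly induces part of this set, above all Hspa1a, Hspa1b, Dnajb1 and Bag3, while genes such as Hspa8 and those of TRiC are transcribed in unstressed cells.

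Irradiated HSCs carried more RNA of Hspa8, of both HSP90 genes, of 7 of 8 HSP90 cochaperones and of all 8 TRiC subunits. Genes known to be heat-inducible went different ways: Hsph1, Hsp90aa1, Chordc1 and Hspa4l rose, Dnajb1 fell slightly and Bag3 was not called. Hspa1a was near 0 in both groups and lower in irradiated HSCs, on few fragments. Of the 55 genes, 52 reached 1 FPKM in at least 3 libraries and were tested; 31 rose, 5 fell and the remaining 16 missed the threshold (limma on log2(FPKM + 1), Benjamini-Hochberg adjusted p under 0.05). Among all 10281 genes tested, 25.8% rose, 28.9% fell and 54.7% were called in either direction. Because the set was chosen with earlier results known, it was described beside these shares and not tested as a set. Cryab and Hsf2 passed the minimum through their irradiated libraries only, so they had to be higher there. Leaving both out, 29 of 50 genes rose, 5 fell, and the median log2 fold change was 0.12, against -0.01 over all genes tested. In 37 of the 52 genes no irradiated library overlapped the controls, and in 31 of these the irradiated ones were higher, against 61.7% and 29.1% of all genes; without Cryab and Hsf2 these were 35 and 29 of 50. In bulk samples a change in the share of a cell type and a change in RNA per cell cannot be told apart.

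The 55 genes together summed to between 7318 and 7365 FPKM in controls and between 8821 and 8933 FPKM in irradiated HSCs, which was 1.498% to 1.512% and 1.80% to 1.84% of the FPKM of a library. Hspa8 alone made up 43.3% of the difference between the group means of these sums. Without it the remaining genes held 1.27% to 1.28% of library FPKM in controls and 1.44% to 1.47% in irradiated HSCs, so the groups stayed apart.

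**Figure D1:**
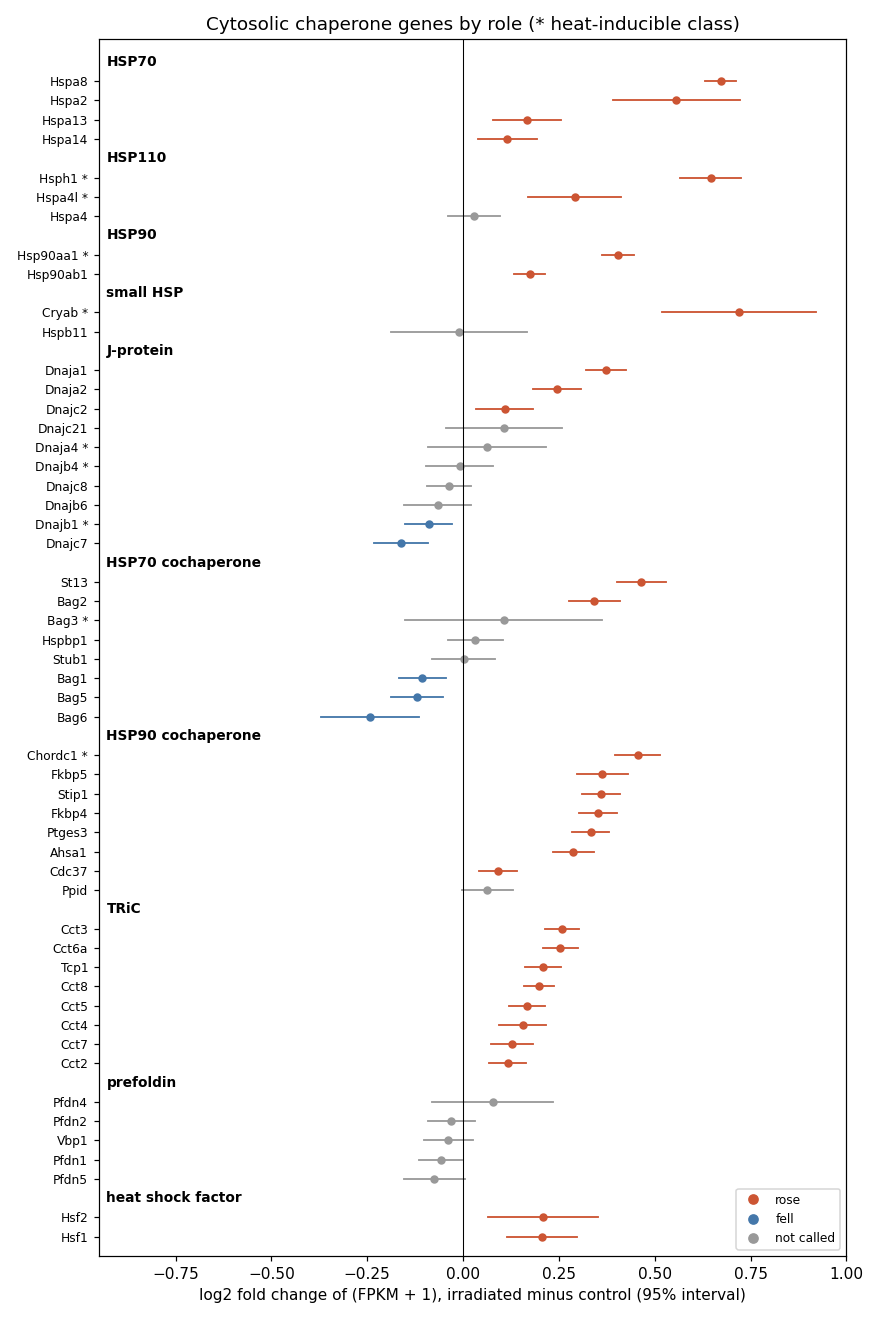
Log2 fold change of (FPKM + 1), irradiated minus control, for the 52 tested genes grouped by role; points are estimates from 3 libraries per group, bars are 95% intervals from limma, red rose, blue fell and grey was not called. All 8 TRiC subunits lie to the right of 0, the 5 prefoldin subunits are grey, and the HSP70 cochaperones spread from -0.24 to 0.47.

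Depth, estimated from the spacing of low values, was about 14350000 to 16270000 fragments per library. Pearson correlations across genes were 0.9982 to 0.9985 within groups and 0.9901 to 0.9904 between groups. Between replicates of a group the median chi-square per gene was 1.28 to 1.62 times that of counting noise alone (6 pairs of libraries). It rests on fragment numbers rebuilt from the estimated depth in single-transcript genes. No library was treated as a repeat of another, which these values cannot decide. Nothing in the labels says that libraries came from separate mice, and p-values then measure only the spread between these libraries, which may be technical. All 14 HSC markers had signal (5 rose, 5 fell), among them Kit at 97.5 ± 1.72 and 96.7 ± 1.65 FPKM (mean ± SD, n = 3, control before irradiated) and Slamf1, which encodes CD150, at 3.57 ± 0.409 and 5.06 ± 0.443 FPKM. RNA of Cd48 and Flt3, whose proteins the gate excluded, was present. It stood at 400.1 and 125.4 FPKM in controls and at 351.6 and 65.7 FPKM in irradiated HSCs. Of the other sort-negative markers, Ly6c2 was at 146.6 and 154.3 FPKM and Itgam at 13.6 and 6.77 FPKM (control before irradiated). The T-cell genes Cd3e and Cd8a and the neutrophil gene Ly6g lay under 0.3 FPKM in every library. RNA of the granulocyte gene Mpo (2253 and 2665 FPKM) and the lymphoid gene Dntt (429.9 and 176.5 FPKM) was abundant.

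Markers of other blood cells moved with the same contrast, beside 25.8% rising and 28.9% falling among all genes tested. Of 12 megakaryocyte markers 10 were tested and 8 rose (summed FPKM 222 to 226 in control libraries and 293 to 308 after irradiation, Gp6 at 0 in all libraries). Of 12 erythroid markers 11 were tested, 8 rose and 3 fell (119 to 126 and 165 to 180 FPKM). Of 12 granulocyte markers 6 rose and 5 fell (5318 to 5353 and 6102 to 6264 FPKM), and of 10 mast cell and basophil markers 5 rose and 1 fell (321 to 328 and 391 to 404 FPKM). Lymphoid markers fell in 9 of 10 tested cases of 14 listed (959.7 to 969.9 and 476 to 494 FPKM; Rag1, Ebf1, Pax5 and Cd3e under 0.3 FPKM). Monocyte and macrophage markers fell in 9 of 11 tested cases (652 to 664 and 558 to 561 FPKM), and all 7 tested endothelial and stromal markers of 13 fell (83.1 to 87.1 and 64.9 to 67.1 FPKM; Cdh5, Kdr, Lepr and Col1a1 under 0.3 FPKM). Markers the sort excludes fell in 5 of 7 tested cases of 12 and rose in 1 (690 to 704 and 576 to 598 FPKM). Of 14 immediate early genes, which handling and sorting can raise, 13 were tested, 4 rose and 5 fell. Fos fell from 311 to 237 FPKM and Ier3 from 123 to 101 FPKM, while Jun rose from 77.3 to 96.3 FPKM and Jund from 41.1 to 53.4 FPKM. The part of these cells and of handling in the chaperone values was not tested.

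HSP70 was carried almost wholly by one gene. Hspa8, the constitutive HSC70 (GRCm38 chromosome 9, 40800984 to 40810087), stood at 1129, 1132 and 1099 FPKM in control replicates 1 to 3 and at 1811, 1756 and 1788 FPKM in irradiated replicates 1 to 3. The groups were far apart, with a ratio of means of 1.59 and a log2 fold change of 0.67 (SE 0.018, limma Benjamini-Hochberg adjusted p = 3.7e-09). Hspa8 lay between the 99.6 and 99.9 percentiles of tested genes in every library and made up 96.1% to 96.2% of the summed FPKM of the 6 HSP70 genes in controls and 97.2% to 97.3% in irradiated HSCs. Its share of all 55 genes went from 15.0% to 15.4% in controls to 19.9% to 20.3% in irradiated HSCs.

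The other tested HSP70 genes also rose, from much lower levels. Hspa2, best known from the testis, was at 3.099, 3.060 and 3.001 FPKM in controls and at 5.58, 5.05 and 4.32 FPKM in irradiated HSCs, 1.63-fold higher by the means, with the spread wider in the irradiated libraries. Hspa13, an HSP70-like ATPase known from microsomes, rose from 10.6 ± 0.169 to 12.04 ± 0.319 FPKM. Hspa14, an HSP70-like partner of Dnajc2 on the ribosome, rose from 30.8 ± 0.556 to 33.4 ± 1.17 FPKM (log2 fold change 0.11), a call lost without control replicate 3 (adjusted p = 0.0592) or irradiated replicate 1 (adjusted p = 0.0657).

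**Figure D2:**
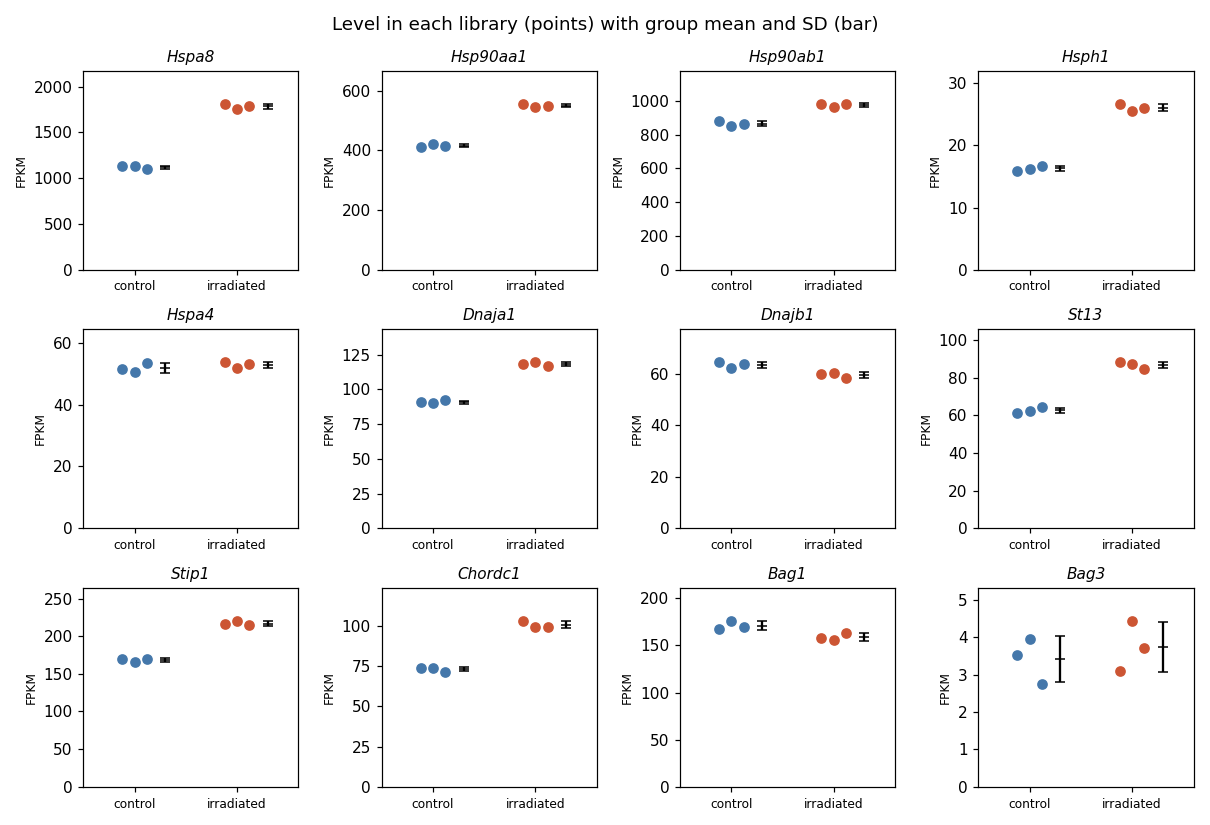
FPKM of 12 chaperone and cochaperone genes in each control (blue) and irradiated (red) library, with the group mean and SD (n = 3) as a bar; all axes start at 0. Hspa8 and Hsph1 show the widest separation, Hspa4 and Bag3 overlap between the groups, and Dnajb1 and Bag1 lie slightly lower after irradiation.

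The heat-inducible HSP70 genes Hspa1a and Hspa1b were close to silent and did not reach the minimum for testing. Hspa1a (chromosome 17, 34969190 to 34972156) was at 0.604, 0.417 and 0.644 FPKM in controls and at 0.136, 0.0726 and 0 FPKM in irradiated HSCs. At the estimated depth these values correspond to about 26.5, 20.2 and 27.6 fragments in controls and 6.4, 3.2 and 0 in irradiated HSCs, so the controls were higher in 3 of 3 libraries on few fragments. In the fit without a minimum its log2 fold change was -0.54 (limma Benjamini-Hochberg adjusted p = 0.00108 over 15010 genes). Hspa1b (chromosome 17, 34956436 to 34959238) rested on 0 to 2 fragments per control library and 1 to 3 per irradiated library, too few to show a difference. The transcripts of these genes are near-identical over much of their length, with 47.1% of all 100-base stretches of Hspa1a found in Hspa1b, so reads may be split between them. Their sum was 0.461 to 0.644 FPKM in control libraries and 0.0248 to 0.181 FPKM after irradiation, and the groups did not overlap.

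**Figure D3:**
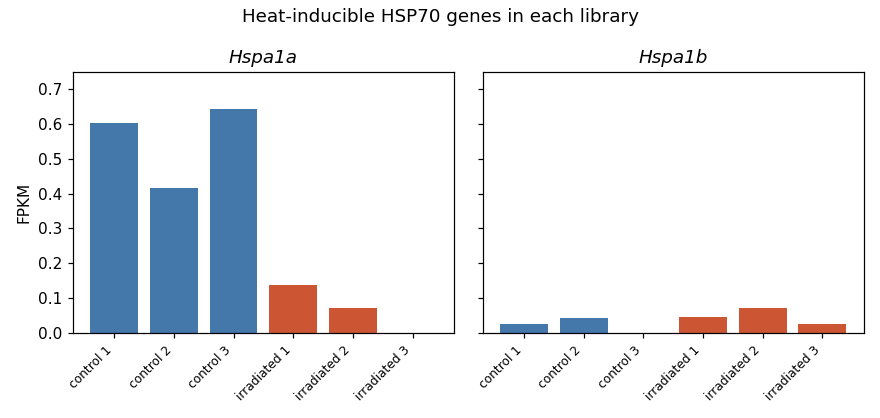
FPKM of Hspa1a (left) and Hspa1b (right) in each library, control in blue and irradiated in red, 1 bar per library and no error. Hspa1a is at 0.417 FPKM or more in each control library and at 0.136 FPKM or less in each irradiated library, and Hspa1b is under 0.1 FPKM throughout.

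Among the HSP110 genes, whose products exchange the nucleotide of HSP70, the heat-inducible members rose and the constitutive one was not called. Hsph1, which encodes HSP105 (chromosome 5, 149614287 to 149636376), was at 15.9, 16.2 and 16.7 FPKM in controls and at 26.6, 25.5 and 25.9 FPKM in irradiated HSCs, with a log2 fold change of 0.65 (SE 0.036, adjusted p = 4.9e-07). Hspa4l was at 4.01, 4.58 and 4.33 FPKM in controls and at 5.54, 5.49 and 5.43 FPKM in irradiated HSCs. Hspa4 overlapped between the groups, at 51.6, 50.5 and 53.5 FPKM and at 53.7, 51.9 and 53.2 FPKM, with a 95% interval of its log2 difference from -0.04 to 0.10. The ratio of Hsph1 to Hspa4 was thus 0.314 ± 0.00635 in controls and 0.492 ± 0.00435 in irradiated HSCs.

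Promoter windows from RefSeq (GRCm38.p6, 250 bases before to 50 after a transcript start) were found for 44 of the 55 genes; Hspa8, Hsp90aa1, Hsp90ab1, Cryab, St13, Hspa13, Dnajc2, Cct4, Ppid, Pfdn1 and Hsf1 had no entry. Heat shock elements are inverted repeats of the unit GAA. A pair of units was searched as GAANNTTC or TTCNNGAA, and a run of 3 units as GAANNTTCNNGAA or TTCNNGAANNTTC, on both strands; each 3-unit match also holds 2 overlapping 2-unit matches, and a gene with several starts counted if any window matched. The 2-unit motif was found in 16 of 44 genes (36.4%), against 17.0% of 27025 genes with a window, and the 3-unit motif in 3 (6.82%), against 0.662%. By response, the 2-unit motif was in 8 of 22 genes that rose, in 0 of 5 that fell and in 5 of 14 that were not called.

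The genes with the 3-unit motif were Hsph1, Chordc1 and Dnajb6; the first 2 rose and Dnajb6 did not pass the test. They are shown with Hspa1a, the archetypal heat shock gene, which held 1 pair of units and was lower in irradiated HSCs on few fragments. These windows differ in the number and position of their matches. Each sequence runs from 170 bases before to 30 after the start on the strand of the gene, with heat shock element matches in capitals, and comes from RefSeq, GRCm38.p6: chr5:149636286-149636485 (minus strand) for Hsph1, chr9:18292097-18292296 (plus) for Chordc1, chr5:29735809-29736008 (plus) for Dnajb6 and chr17:34972127-34972326 (minus) for Hspa1a.
Hsph1: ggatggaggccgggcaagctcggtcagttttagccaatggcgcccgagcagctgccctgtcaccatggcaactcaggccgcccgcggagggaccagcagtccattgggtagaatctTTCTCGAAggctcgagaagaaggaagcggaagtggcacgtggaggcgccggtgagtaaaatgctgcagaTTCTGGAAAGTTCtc
Chordc1: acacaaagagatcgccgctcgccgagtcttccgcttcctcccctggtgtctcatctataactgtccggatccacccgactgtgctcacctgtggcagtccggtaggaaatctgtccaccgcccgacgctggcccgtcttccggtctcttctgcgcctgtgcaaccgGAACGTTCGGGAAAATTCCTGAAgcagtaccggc
Dnajb6: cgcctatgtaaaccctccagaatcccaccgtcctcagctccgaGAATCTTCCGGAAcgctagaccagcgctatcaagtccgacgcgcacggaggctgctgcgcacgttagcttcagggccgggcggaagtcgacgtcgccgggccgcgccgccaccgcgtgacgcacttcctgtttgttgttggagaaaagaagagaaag
Hspa1a: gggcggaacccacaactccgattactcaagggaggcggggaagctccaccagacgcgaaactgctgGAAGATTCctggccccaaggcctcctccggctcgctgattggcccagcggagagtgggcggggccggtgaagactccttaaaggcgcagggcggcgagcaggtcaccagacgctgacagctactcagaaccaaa
The Chordc1 run of 23 bases held 3 overlapping 3-unit matches across the start, and the windows of Hspa1a and Hspa1b were identical at 296 of 300 positions. A match is a description of the letters and does not show binding.

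Both cytosolic HSP90 genes rose, with the larger estimate for the inducible one. Hsp90aa1, the inducible HSP90 alpha (chromosome 12, 110690605 to 110702728), was at 411, 421 and 413 FPKM in controls and at 555, 545 and 548 FPKM in irradiated HSCs (log2 fold change 0.40, SE 0.018, adjusted p = 1.34e-07). Hsp90ab1, the constitutive HSP90 beta (chromosome 17, 45567775 to 45573271), was at 878, 849 and 865 FPKM and at 981, 963 and 979.9 FPKM (log2 fold change 0.17, SE 0.018, adjusted p = 2.86e-05). The beta form remained the more abundant in every library, and the ratio of alpha to beta went from 0.468, 0.496 and 0.478 in controls to 0.566, 0.566 and 0.559 in irradiated HSCs. Hspa8 exceeded the HSP90 genes together only in irradiated HSCs: its level was 0.860 to 0.891 times the sum of both HSP90 genes in controls and 1.16 to 1.18 times in irradiated HSCs.

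Small heat shock proteins were barely transcribed. Hspb1, which encodes HSP27, stayed between 0.0681 and 0.375 FPKM with overlapping groups and was not tested. Cryab, the alpha-B crystallin, was at 0.556, 0.322 and 0.363 FPKM in controls and at 1.52, 1.11 and 1.35 FPKM in irradiated HSCs (log2 fold change 0.72, SE 0.091), and reached the minimum only there. Hspb11, better known as the intraflagellar transport gene Ift25, was at 1.97 ± 0.218 and 1.95 ± 0.231 FPKM and was not called.

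J-protein genes moved in both directions, with 3 of 10 higher and 2 lower (the other 5 missed the threshold) and a median log2 change of 0.03. The shares over all genes tested were 25.8% rising and 28.9% falling. Dnaja1 and Dnaja2, J-proteins of the cytosolic HSP70 cycle, rose. Dnaja1 was at 90.6, 90.0 and 92.1 FPKM in controls and at 118, 119 and 117 FPKM in irradiated HSCs (log2 fold change 0.37), and Dnaja2 went from 100.1 ± 3.16 to 118.7 ± 1.80 FPKM. Dnajc2, the ribosome-bound J-protein, rose from 56.5 ± 1.26 to 61.0 ± 2.34 FPKM, a call lost without control replicate 1 (adjusted p = 0.0686) or irradiated replicate 1 (adjusted p = 0.0679). Dnajc7, a J-protein with tetratricopeptide repeats that bind HSP70 and HSP90, fell from 59.2, 58.6 and 60.4 FPKM to 51.6, 55.2 and 52.2 FPKM (log2 fold change -0.16, adjusted p = 0.00173). Dnajb1, the HSP40 of the heat shock response (chromosome 8, 83608193 to 83612653), fell slightly, with levels of 64.5, 62.2 and 64.0 FPKM in controls and 60.0, 60.5 and 58.5 FPKM in irradiated HSCs (log2 fold change -0.09, adjusted p = 0.0186). The groups did not overlap, but the call was lost without control replicate 1 (adjusted p = 0.0665), control replicate 3 (adjusted p = 0.0556) or irradiated replicate 3 (adjusted p = 0.0693).

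The remaining J-proteins were not called. The inducible Dnajb4 was at 14.8, 15.3 and 15.6 FPKM and at 15.6, 14.7 and 15.1 FPKM, with a 95% interval of its log2 difference from -0.10 to 0.08, and the inducible Dnaja4 at 2.45, 2.75 and 2.65 FPKM and at 2.49, 2.77 and 3.07 FPKM (-0.09 to 0.22). Dnajb6, which holds back aggregation, had a log2 fold change of -0.07, Dnajc8, found with the spliceosome, of -0.04, and Dnajc21, a factor of ribosome assembly, of 0.11. Dnajc21 was at 14.8 FPKM in irradiated replicate 3 and between 11.8 and 12.4 FPKM in the other 5 libraries. The summed FPKM of HSP70 genes was 1.85 to 1.96 times that of the 10 J-proteins in controls and 2.79 to 2.91 times in irradiated HSCs.

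HSP70 cochaperones also moved in both directions, with 2 of 8 higher, 3 lower and 3 not called. Over all genes tested 25.8% rose and 28.9% fell. St13, which encodes Hip and stabilises the client-bound state of HSP70, was at 61.2, 62.5 and 64.2 FPKM in controls and at 88.2, 87.6 and 84.8 FPKM in irradiated HSCs (log2 fold change 0.47, SE 0.029, adjusted p = 9.66e-07). Bag2, an inhibitor of the ubiquitin ligase CHIP, rose from 37.9, 36.9 and 37.3 FPKM to 48.1, 46.4 and 48.6 FPKM (0.34). The BAG exchange factors Bag1 and Bag5 fell slightly, Bag1 from 167, 176 and 169 FPKM to 157, 155 and 163 FPKM (-0.11) and Bag5 from 39.9 ± 0.196 to 36.6 ± 1.02 FPKM (-0.12). Bag6, which escorts tail-anchored and mislocalised proteins, fell from 4.27, 3.96 and 3.84 FPKM to 3.13, 3.42 and 3.20 FPKM (-0.24, adjusted p = 0.00516).

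Bag3, the heat-inducible BAG protein of selective autophagy, was at 3.52, 3.96 and 2.75 FPKM in controls and at 3.10, 4.43 and 3.70 FPKM in irradiated HSCs. Its libraries scattered widely, and the 95% interval of its log2 difference, -0.15 to 0.36, does not bound it closely. Stub1, which encodes CHIP, the ligase that sends HSP70 and HSP90 clients to degradation, was at 33.7 ± 0.918 and 33.8 ± 1.38 FPKM (-0.08 to 0.08), and the exchange factor Hspbp1 at 80.3 ± 1.86 and 82.2 ± 3.12 FPKM. Stub1 was 0.198 to 0.203 times the level of Stip1 in controls and 0.153 to 0.160 times in irradiated HSCs.

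HSP90 cochaperones rose nearly throughout, with 7 of 8 higher and none lower (median log2 fold change 0.34). Beside them, 25.8% of all genes tested rose and 28.9% fell. Stip1, which encodes Hop and passes clients from HSP70 to HSP90, was at 170.3, 165.3 and 170.1 FPKM in controls and at 215.6, 220.2 and 214.2 FPKM in irradiated HSCs (log2 fold change 0.36, SE 0.022, adjusted p = 1.02e-06). Chordc1, which encodes the HSP90-binding protein morgana (chromosome 9, 18292125 to 18317442), rose from 74.3, 73.8 and 71.8 FPKM to 103.2, 99.6 and 99.7 FPKM, with a log2 fold change of 0.46 (SE 0.026), and its start carries the longest heat shock element run of the sequences printed here. The groups were well apart in both genes.

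Among the immunophilins, Fkbp4 and Fkbp5, which compete on steroid receptor complexes, rose by similar amounts: Fkbp4 from 251.5 ± 3.10 to 321.2 ± 7.001 FPKM (0.35) and Fkbp5 from 31.9, 31.5 and 32.7 FPKM to 41.6, 40.8 and 42.0 FPKM (0.36). The ratio of Fkbp5 to Fkbp4 was 0.126 to 0.129 in control libraries and 0.127 to 0.133 after irradiation, and these ranges overlap. Ptges3, the HSP90 cochaperone p23, rose from 128.2 ± 0.691 to 161.8 ± 2.24 FPKM (0.33), and Ahsa1, the activator of the HSP90 ATPase, from 153.2 ± 3.08 to 187.2 ± 3.21 FPKM (0.29). Cdc37, the kinase-specific cochaperone, rose least, from 127.5 ± 0.577 to 135.9 ± 1.86 FPKM (0.09, adjusted p = 0.00548). Ppid, the cyclophilin of this group, was not called at 93.5 ± 3.21 and 97.7 ± 1.86 FPKM (95% interval -0.0037 to 0.13).

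All 8 TRiC subunits rose, by log2 fold changes of 0.12 to 0.26 (median 0.18), and in each the irradiated libraries lay above the controls. Among all genes tested 25.8% rose, and in 29.1% every irradiated library lay above the controls. Cct3 rose by 0.26, from 356, 347 and 344 FPKM to 420.1, 414 and 419 FPKM (SE 0.020, adjusted p = 4.2e-06), and Cct6a by 0.25, from 274, 280.4 and 279 FPKM to 337, 330.3 and 328 FPKM. Tcp1, which gives the complex its name, rose from 164.0 ± 1.69 to 189.6 ± 2.36 FPKM and Cct8 from 394.9 ± 0.607 to 453.3 ± 5.75 FPKM. Cct2 went from 113.7 ± 0.658 to 123.3 ± 1.38 FPKM (0.12, adjusted p = 0.00136), and the log2 fold change was 0.13 for Cct7, 0.16 for Cct4 and 0.17 for Cct5. The subunits are not ranked by change: quantile normalization reversed Cct3 (0.22) with Cct6a (0.26) and Cct2 (0.13) with Cct7 (0.11).

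The protein ring holds its 8 subunits in equal number, but their RNA did not stand at equal levels. Cct5 or Cct8 was the highest, Cct5 in control replicates 1 and 2 and Cct8 in the other 4 libraries, followed in all 6 libraries by Cct3, Cct7, Cct6a, Cct4, Tcp1 and Cct2. Cct8 was 3.46 to 3.48 times the level of Cct2 in controls and 3.60 to 3.75 times in irradiated HSCs.

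None of the 5 prefoldin subunits was called, and their median log2 change was -0.04. Over all genes tested, 54.7% were called in either direction. Vbp1 was at 174.5 ± 5.11 and 169.98 ± 4.97 FPKM, Pfdn5 at 130.3 ± 4.09 and 123.7 ± 5.86 FPKM, Pfdn2 at 53.0 ± 0.969 and 51.8 ± 0.515 FPKM, and Pfdn1 at 74.6 ± 1.28 and 71.6 ± 0.672 FPKM. Pfdn1 was lower in 3 of 3 irradiated libraries but missed the threshold (adjusted p = 0.0737). Pfdn4 overlapped, at 20.6, 25.4 and 20.5 FPKM in controls and at 24.1, 23.4 and 22.5 FPKM in irradiated HSCs. Leaving out control replicate 2 gave a rise of Pfdn4 (log2 fold change 0.18, adjusted p = 0.00863), and leaving out irradiated replicate 2 a fall of Pfdn5 (-0.11, adjusted p = 0.0176). The sixth subunit, Pfdn6, named after its values were seen, was not called at 124.7 ± 5.35 and 128.9 ± 4.01 FPKM. The mean of the TRiC subunits was 3.07 to 3.22 times the mean of the 5 prefoldin subunits in controls and 3.60 to 3.75 times in irradiated HSCs.

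**Figure D4:**
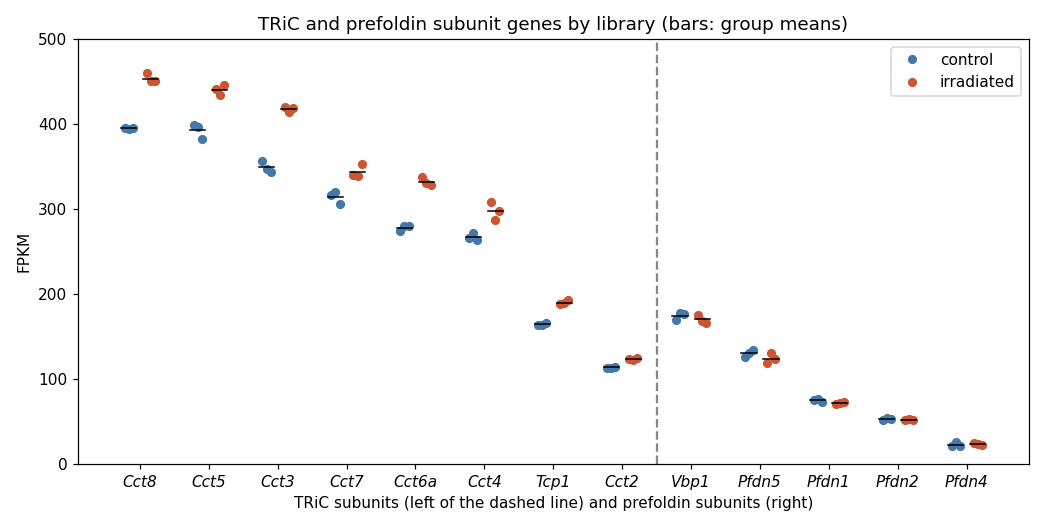
FPKM of the 8 TRiC and 5 prefoldin subunit genes in each control (blue) and irradiated (red) library, with group means as bars (n = 3). Irradiated libraries lie above the controls for each TRiC subunit, while the groups overlap in 4 of the 5 prefoldin subunits, Pfdn1 being lower after irradiation without passing the test.

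Of the heat shock factor genes Hsf1 rose slightly, while Hsf2 had to be higher in irradiated libraries to be tested. Hsf1, the main regulator of the heat shock response, was at 32.8, 33.1 and 35.0 FPKM in controls and at 37.6, 41.1 and 38.2 FPKM in irradiated HSCs (log2 fold change 0.21, SE 0.041, adjusted p = 0.00186). HSF1 activity is set largely by binding to chaperones and by phosphorylation, which RNA levels do not show. Hsf2 was at 0.928, 0.9996 and 0.922 FPKM and at 1.17, 1.25 and 1.33 FPKM (log2 fold change 0.21, adjusted p = 0.0196), reached the minimum through its irradiated libraries only, and lost the call without control replicate 1 (adjusted p = 0.0544) or control replicate 3 (adjusted p = 0.0567).

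The inducible class was defined from textbook knowledge of the heat shock response as Hspa1a, Hspa1b, Hsph1, Hspa4l, Hsp90aa1, Hspb1, Cryab, Dnajb1, Dnajb4, Dnaja4, Bag3 and Chordc1; Fkbp5, which glucocorticoids induce, Hsf1 and Hsf2 were put in neither class, and the other 40 genes were called constitutive. Of 12 inducible genes 9 could be tested: 5 rose, 1 fell and 3 missed the threshold, and without Cryab 4 of 8 rose with a median log2 fold change of 0.20. Of 40 constitutive genes 23 rose, 4 fell and 13 were not called, with a median of 0.12. Among all genes tested 25.8% rose and 28.9% fell, with a median of -0.01. The split depends on where the class ends. Heat also induces Hspa8, Dnaja1, Stip1, Ahsa1 and Fkbp4 to some degree. With these counted as inducible, 10 of 14 tested inducible genes rose (median 0.36), against 18 of 35 constitutive genes (median 0.11). The 10 include Cryab, which had to be higher in irradiated libraries to pass the minimum. The inducible genes thus differed among themselves: Hsph1, Hsp90aa1, Chordc1 and Hspa4l rose, whereas Dnajb1, Dnajb4, Dnaja4 and Bag3 lay between -0.09 and 0.11 and Hspa1a, Hspa1b and Hspb1 stayed under 1 FPKM. The 2-unit heat shock element was in the windows of 8 of 10 inducible and 8 of 32 constitutive genes, Dnajb4, Dnaja4, Bag3 and Hspb1 included and Dnajb1 and Hspa4l not. It was in 17.0% of all genes with a window and in 14.1% of tested ones. The inducible class was chosen by its heat shock response, so these counts do not bear on irradiation.

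**Figure D5:**
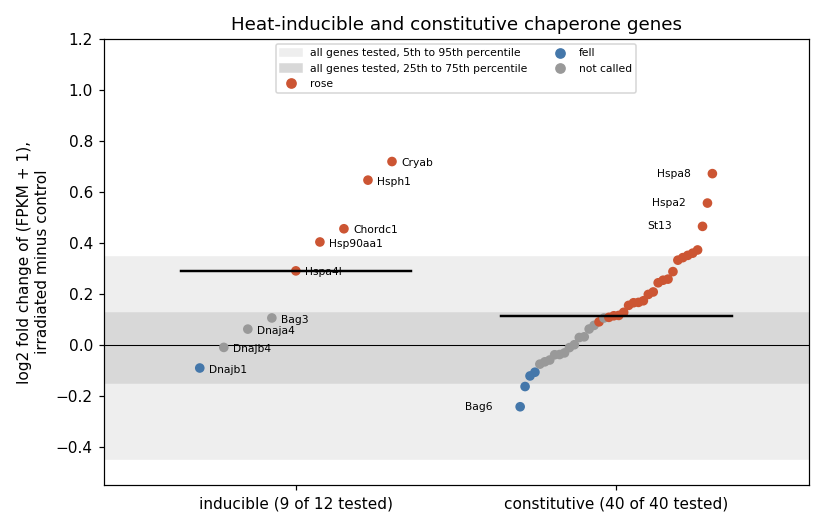
Log2 fold change of (FPKM + 1), irradiated minus control, for the tested inducible (left) and constitutive (right) genes, ordered by value; colours give the call, black bars the class medians with Cryab included (0.29 and 0.12), and grey bands the spread of all genes tested. The inducible genes run from Dnajb1 at -0.09 to Cryab at 0.72, and Hspa8 at 0.67 is the highest constitutive gene.

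Ratios within a library compared an inducible with a constitutive relative, and Hsf2 with Hsf1. Of 8 pairs, those of Hspa1a and Hspa1b with Hspa8 were left out because of values at 0. The log2 ratio was higher in irradiated HSCs by 0.65 for Hsph1 over Hspa4, by 0.32 for Hspa4l over Hspa4 and by 0.23 for Hsp90aa1 over Hsp90ab1, and Dnajb1 over Dnaja2 went from 0.636 ± 0.0294 to 0.503 ± 0.00557, a log2 difference of -0.34. In these 4 pairs and in Hsf2 over Hsf1 (0.19, but 0.00256 with 1 FPKM added to both genes) the groups did not overlap, and the 2-sided exact permutation test gave p = 0.1, the smallest that 3 against 3 libraries allow (adjusted p = 0.12 over 6 pairs). Bag3 over Bag1 overlapped between groups (exact permutation p = 0.4).

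Chaperone genes outside this set were compared by list, beside 25.8% rising and 28.9% falling among all genes tested. Of 47 other cytosolic chaperone and cochaperone genes 39 were tested, 11 rose and 8 fell (median log2 change 0.0034): Unc45a, the myosin chaperone, rose from 8.49 to 11.3 FPKM and Nudcd1 from 21.9 to 26.0 FPKM, while Uri1, a prefoldin-like protein, and Nudcd3 fell, with log2 fold changes of -0.19 and -0.28. Mitochondrial chaperones rose in 7 of 14 cases and fell in none, with Hspa9, the mitochondrial HSP70, at 0.18 and Clpb, a disaggregase, at 0.34. ER chaperones rose in 14 of 17 cases (median 0.46), among them Creld2, from 67.3 to 115.2 FPKM. Of 7 tested heat shock genes that are not chaperones 3 rose and 4 fell; the polyubiquitin gene Ubb fell from 1577 ± 57.8 to 1273 ± 16.4 FPKM, while Rrp12, a ribosome assembly factor, rose by 0.49 and Usp14, a proteasome-bound deubiquitinase, by 0.25. Of 17 genes of TRiC clients 5 rose, 4 fell and 8 were not called (median -0.01), with the tubulin genes Tuba4a and Tubb4b at 0.27 and 0.21, Vhl, an E3 ligase subunit, at -0.33 and the mitotic activator Cdc20 at -0.18.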

How the data were processed

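Libraries of polyadenylated RNA from sorted HSCs were made with a stranded kit, per the labels' protocols. Per the submitters' processing notes, fastp, HISAT2 and StringTie were used on GRCm38 (mm10); for versions, annotation and settings the sources used here give nothing. Values deposited by the authors were taken as FPKM, inferred from the values and the tools, since the file headers name no unit. Of 21878 entries, 27 carried a date in place of a symbol and were left out. Depth was estimated from steps in FPKM times transcript length in single-transcript genes of GENCODE M21; 24.3% to 30.2% of low values lay within 0.01 of a whole multiple, too few to recover reads.

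Genes that reached 1 FPKM in 3 or more of the libraries entered the test, on log2(FPKM + 1), a scale that understates changes of low genes, with limma 3.58.1 in R 4.3.3 (mean-variance trend, 2-sided, no replicate block), Benjamini-Hochberg adjustment over all genes and a threshold of 0.05. The fit was tested on simulated data. Fold changes without log2 are ratios of mean FPKM. All members may be named; every library is given for the inducible tested genes, the paired genes, Hsf1 and Hsf2 and at most the 2 largest rises and falls per role, otherwise mean ± SD (n = 3), and of other lists at most the 4 genes with the smallest p. Members and lists were chosen with earlier results of these data known. Alternatives were other pseudocounts, filters, scalings, a fit without trend, a replicate block and leaving out each library.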

Additional observations from a re-analysis of the deposited data

How the results depend on the processing

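The counts of chaperone genes that rose (31) and fell (5) were the same under pseudocounts of 0.1 and 5, median-ratio scaling, quantile normalization, no trend and the replicate block. Same-numbered libraries did not deviate together (correlations of 0.0085, -0.03 and -0.05), so the numbers are not taken as pairs; with the replicate block 2539 genes rose and 2840 fell, against 2650 and 2972 without it. Across the leave-one-out fits 27 to 32 chaperone genes rose and 4 to 6 fell. In these fits the count of J-proteins that fell was 1 to 2, of inducible genes that fell 0 to 1, of small HSP genes that rose 0 to 1, of heat shock factors that rose 1 to 2, and of prefoldin genes that rose 0 to 1 and fell 0 to 1; Cryab and Hsf2 cannot reach the minimum without an irradiated library. With no minimum, 1 HSP70 gene (Hspa1a) and 2 inducible genes fell; with a minimum of 5 FPKM, 0 small HSP genes and 1 heat shock factor rose, since fewer genes were tested. In the wider inducible class 10 of 14 genes rose, Cryab included, and 1 fell, against 18 and 4 of 35 constitutive genes. With a pseudocount of 1 on both genes the log2 difference was 0.62 for Hsph1 over Hspa4 and 0.00256 for Hsf2 over Hsf1. No called chaperone gene changed direction in any fit. Depth limits Hspa1a, Hspa1b and Hspb1, which rest on few fragments.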
